A study of Mus musculus with 51 samples.

Results

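Imprinted genes outside the Prader-Willi cluster were measured by RNA-seq in mouse embryonic stem cells (mESCs) held in 2i + LIF, a serum-free medium with inhibitors of MEK and GSK3 plus leukaemia inhibitory factor that keeps the cells in the pluripotent state. The genes were taken from a list of 52 known imprinted genes, set out in 12 groups by chromosome and position, 1 group of non-canonical genes and 1 of genes at loci of their own, and all 52 were among the 35591 genes of the count table. Control lines were Smchd1 fl/+ and maternal null lines were Smchd1 del/+, with 3 lines of each genotype. All 6 lines were male F1 cells of a C57BL/6 mother and a Castaneus (Cast) father. In the maternal null, Zp3-Cre, which is driven by an oocyte promoter, removed Smchd1 from the growing oocyte. The embryo then carried a deleted maternal and an intact paternal Smchd1 allele, so these cells can still transcribe the gene. Each line came from its own blastocyst. The comparison asks whether lines that lacked oocyte-supplied SMCHD1 express imprinted genes at other levels than the controls. The same lines also carried only 1 intact Smchd1 allele. Loss of oocyte SMCHD1 and this heterozygosity therefore cannot be told apart in these 6 lines. Counts were not split by parental allele, so no value below says which allele was read.

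Imprinted genes are expressed from the allele of 1 parent. Most lie in clusters where a differentially methylated region, methylated in the egg or in the sperm, sets which allele is active across the cluster, often through a long non-coding RNA or an insulator. A smaller set of non-canonical imprinted genes is marked in the oocyte by H3K27me3 in place of DNA methylation. SMCHD1 is a chromatin protein of the SMC family with known roles in X inactivation and at imprinted clusters, and the oocyte supplies it to the early embryo.

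The 6 libraries held between 27526359 and 126716460 counts. A count of 0 allows a level of up to 0.0237 to 0.109 CPM, depending on the library, where CPM is the count scaled to a library of 1000000 counts, and this limit covers counting error only. Smchd1 itself was at 107, 124 and 119 CPM in control lines 1 to 3 and at 63.7, 72.0 and 90.7 CPM in maternal null lines 1 to 3. Its log2 fold change was -0.63 ± 0.14 (SE, n = 3 lines per genotype), in the direction of the labels, with an adjusted p of 0.992 in edgeR's quasi-likelihood test with Benjamini-Hochberg adjustment. The 8 pluripotency markers summed to 4987 to 6013 CPM in each line, and 5 of the 6 fibroblast markers never exceeded 0.840 CPM, the exception being Thy1, which was at 0.849 CPM or more in every line. The lines numbered 3 stood apart from the others in both genotypes along the principal components that held 48.2% and 26.7% of the variance. On the first component both lay on the same side of the other lines. On the second they lay on opposite sides, control line 3 at -56.7 and maternal null line 3 at 30.6, so their deviations were only partly shared. Values of the genes that turn on the lines numbered 3 are given with and without them. Without both, Smchd1 passed the test with a log2 fold change of -0.77 and an adjusted p of 0.0296.

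Of the 52 genes, 42 had enough counts to be tested among 17696 genes. None of the 42 passed an adjusted p of 0.05 in edgeR's quasi-likelihood test with Benjamini-Hochberg adjustment, against 0.0% of all genes tested. At an unadjusted p under 0.05, 397 of the 17696 genes were counted. The edgeR exact test called 2 genes at the adjusted threshold and DESeq2 called 0, and no imprinted gene on the list was called by any tool. The median log2 fold change was -0.11 over the 42 genes and -0.01 over all genes tested, and 19 of the 42 (45.2%) had a value above 0, against 48.3% of all genes. Without both lines numbered 3, all 42 still had a value, which was closer to 0 by over 1.5 times for 19 genes, farther from 0 by over 1.5 times for 3 (Sgce, Ppp1r9a and Osbpl5), within 1.5 times for 10 and of the other sign for 10. In bulk RNA, fewer cells of a type and less RNA per cell cannot be told apart.

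No tested gene on the list was higher in the maternal null at an unadjusted p under 0.05, against 1.07% of all genes tested, and 3 were lower, against 1.17%. These were Asb4, Ascl2 and Tspan32, all known to be expressed from the maternal allele in at least some tissues. Groups that did not overlap were counted separately. No gene on the list was higher in all 3 maternal null lines than in all 3 controls, where 4.7% of all genes were. In the other direction, 6 genes lay below every control in every maternal null line (14.3%, against 4.68% of all genes): Asb4, Ascl2, Tspan32, Cdkn1c, Commd1 and Dio3. An exact permutation test of 3 lines against 3 cannot give a two-sided p below 0.1, so their p-values rest on the fit across all genes. A log2 fold change of at least 1 in either direction was found for 2 genes, Asb4 and Igf2 (4.76%, against 1.32% of all genes).

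**Figure D1:**
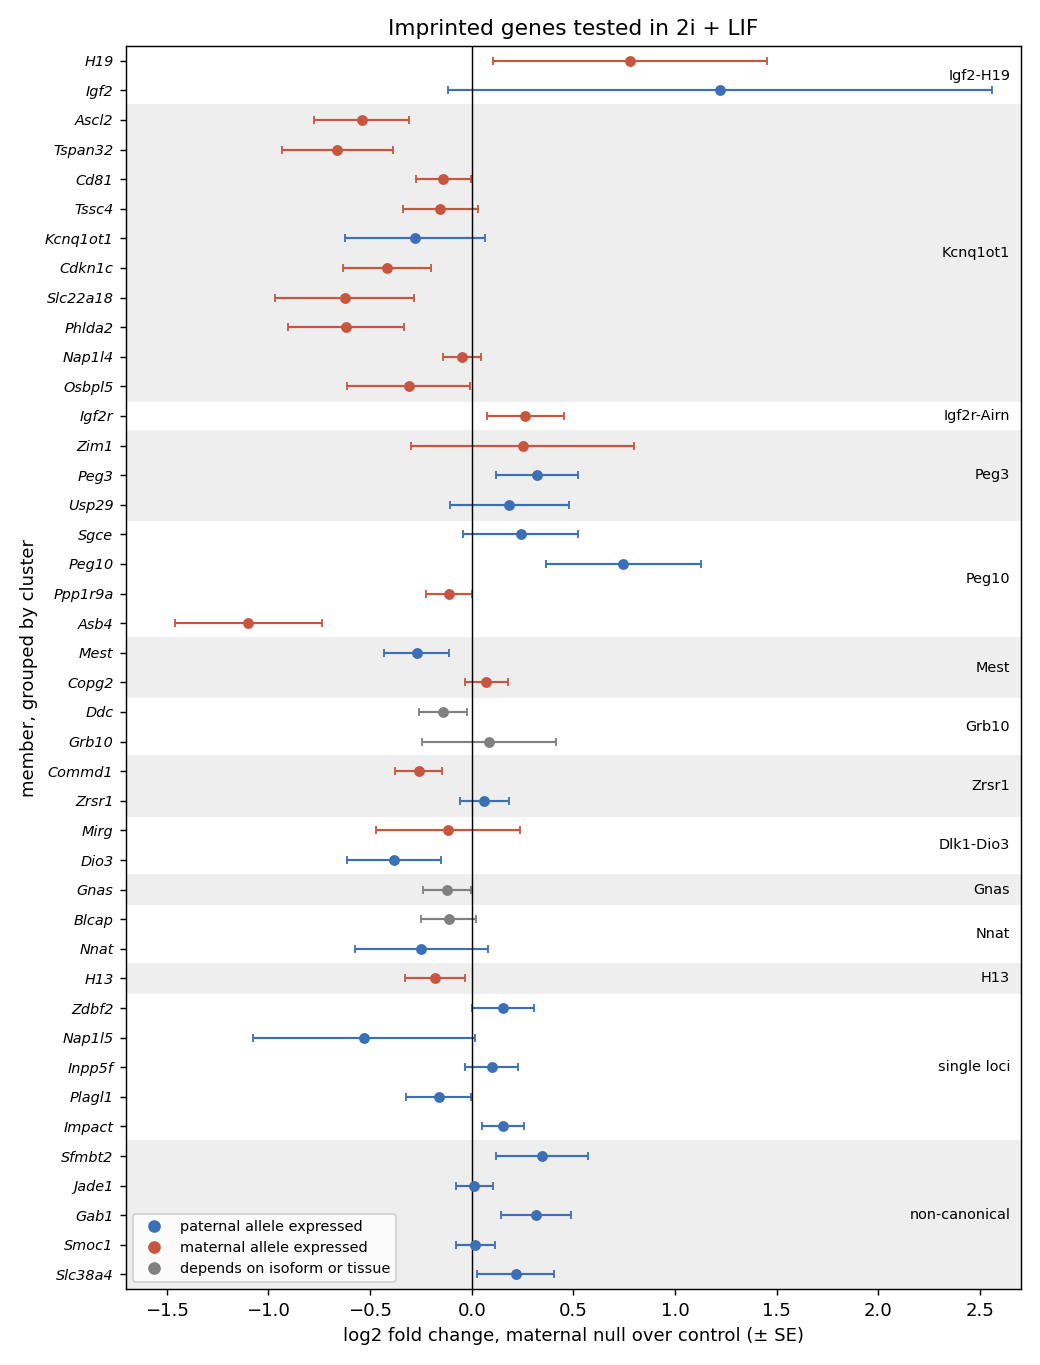
Log2 fold change of the maternal null over the control (x axis, ± SE, 3 lines per genotype) for the 42 imprinted genes tested, one row per gene. Rows are shaded by cluster and coloured by the allele known to be expressed in at least some tissues. All 10 tested genes of the Kcnq1ot1 cluster lie below 0, and the 2 genes of the Igf2-H19 cluster lie above 0 with the widest errors.

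The Kcnq1ot1 cluster on distal chromosome 7 was the group with the most members tested, 10 of 11. In this domain the non-coding RNA Kcnq1ot1 is transcribed from the paternal allele, and its neighbours are silenced in cis in at least some tissues. There they are expressed from the maternal allele, and whether this held in these cells was not measured. All 10 had a lower mean in the maternal null, with log2 fold changes of -0.66 to -0.05 and a median of -0.36. Only 2 of them had an unadjusted p under 0.05, and none passed the adjusted threshold. Without the lines numbered 3, the median was -0.27 and Cd81 (0.07) and Tssc4 (0.04) turned to values above 0.

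Ascl2, a transcription factor needed for the placental spongiotrophoblast, lies at chr7:142966829-142969264 (GRCm38, minus strand). It was at 9.58, 11.1 and 10.9 CPM in the control lines and at 8.85, 7.95 and 4.76 CPM in the maternal null lines. Every maternal null line was below every control, and maternal null line 3 was the lowest. The log2 fold change was -0.54 ± 0.23 (SE), with an unadjusted p of 0.0493 and an adjusted p of 0.992 in edgeR's quasi-likelihood test. Leaving out maternal null line 3 gave -0.33, and leaving out both lines numbered 3 gave -0.31 with an unadjusted p of 0.0390. The unadjusted p of Ascl2 was no longer under 0.05 with total counts alone for scaling, with at least 10 counts in every library, or without any 1 of the lines other than maternal null line 1.

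Tspan32, a tetraspanin of blood cells, lies at chr7:143005046-143019644 on the plus strand. It was at 2.27, 2.53 and 3.88 CPM in the controls and at 1.92, 2.08 and 1.46 CPM in the maternal null. The groups did not overlap, but the gap between control line 1 and maternal null line 2 was small beside the spread among the controls. The test gave a log2 fold change of -0.66 ± 0.27, with an unadjusted p of 0.0420 and an adjusted p of 0.992 in edgeR's quasi-likelihood test. Leaving out control line 3 gave -0.39, and leaving out both lines numbered 3 gave -0.28 with an unadjusted p of 0.173. With the line number as a block the unadjusted p of Tspan32 was 0.0617, and on leaving out 1 line it was under 0.05 only without control line 1.

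Cdkn1c, which encodes the cell cycle inhibitor p57, was at 3.28, 3.63 and 4.47 CPM in the controls and at 3.05, 2.36 and 3.15 CPM in the maternal null. Its groups did not overlap either, with a log2 fold change of -0.42 ± 0.22 and an unadjusted p of 0.0908 in edgeR's quasi-likelihood test. Phlda2, a growth-limiting gene of the placenta, overlapped between genotypes at 11.6, 10.7 and 14.4 CPM against 11.4, 7.10 and 5.19 CPM. Slc22a18, a transporter gene, also overlapped at 3.35, 2.12 and 4.76 CPM against 2.61, 1.57 and 2.44 CPM. Without both lines numbered 3 the log2 fold changes were -0.36 for Cdkn1c, -0.25 for Phlda2 and -0.32 for Slc22a18, against -0.62 for Phlda2 and -0.63 for Slc22a18 with all lines. Each of these 3 genes had a lower value in the maternal null line than in the control line of the same number in 3 of 3 pairs. Over the whole list this held for 13 of 42 genes (31.0%, against 16.6% of all genes), and the opposite for 3 (7.14%, against 15.5%), which were Peg10, H19 and Slc38a4. The labels do not say that lines of the same number are pairs.

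The most abundant gene of the cluster per length of exon was Cd81, a tetraspanin found on most cells, at 85.3 CPM per kb. It was at 235, 242 and 296 CPM in the controls and at 249, 250 and 203 CPM in the maternal null, and the groups overlapped. Nap1l4, a histone chaperone, had a log2 fold change of -0.05 ± 0.09 and a spread between lines at the 3.31 percentile of all genes tested. Kcnq1ot1 itself was at 4.72, 2.44 and 6.23 CPM in the controls and at 3.12, 3.33 and 4.59 CPM in the maternal null, also overlapping. Its transcript lies antisense to Kcnq1, and since the counting strand is not given in the sources used here, reads of Kcnq1ot1 and Kcnq1 cannot be told apart where they overlap.

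**Figure D2:**
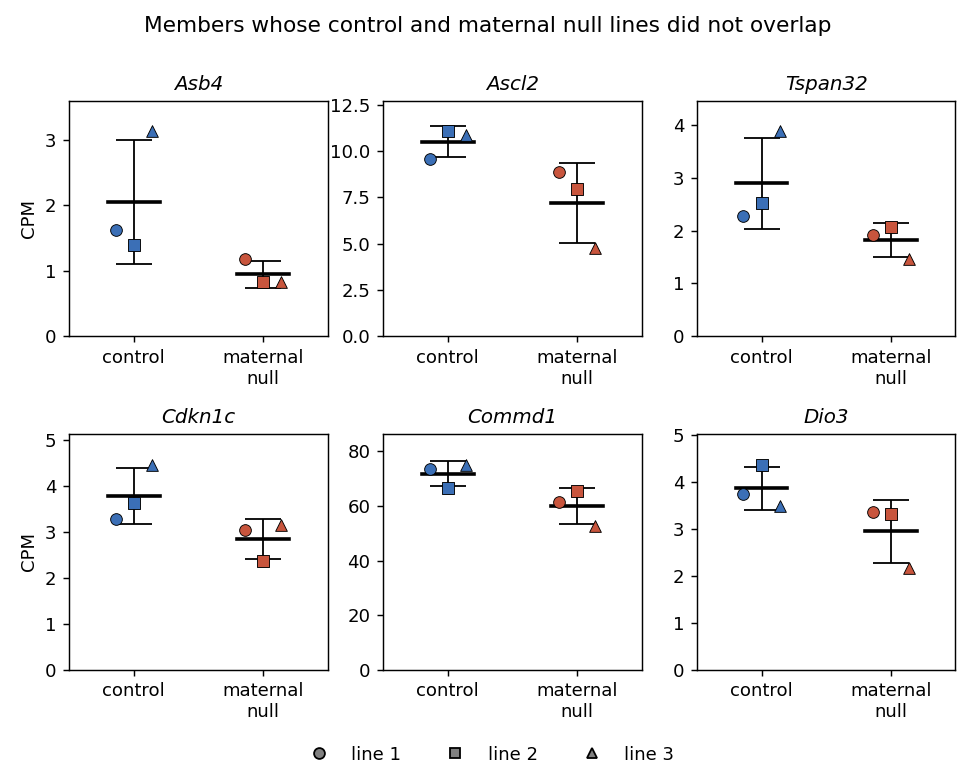
Levels in CPM (y axis from 0) of the 6 genes whose control and maternal null lines did not overlap, with 1 point per line, the symbol giving the line number, and the mean ± SD of 3 lines in black. Every maternal null point lies below every control point, and in Asb4, Tspan32, Cdkn1c and Commd1 control line 3 is the highest point.

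Asb4, which encodes an ankyrin repeat protein with a SOCS box, lies at chr6:5383386-5433022 in the Peg10 cluster and had the lowest log2 fold change on the list. It was at 1.62, 1.40 and 3.13 CPM in the controls and at 1.18, 0.821 and 0.831 CPM in the maternal null. No lines overlapped, and control line 3 was the highest of the 6. The log2 fold change was -1.10 ± 0.36 with an unadjusted p of 0.0159 and an adjusted p of 0.992 in edgeR's quasi-likelihood test. Leaving out control line 3 gave -0.65, and leaving out both lines numbered 3 gave -0.56 with an unadjusted p of 0.0541.

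Peg10, a retrotransposon-derived gene needed for the placenta, differed from its neighbour Asb4 in the direction of its mean. It was at 15.1, 12.7 and 23.4 CPM in the controls and at 26.8, 15.2 and 44.1 CPM in the maternal null. The groups overlapped because control line 3 lay above maternal null line 2, which itself was just above control line 1. In 3 of 3 pairs of the same line number the maternal null line was the higher. The log2 fold change was 0.75 ± 0.38 with an unadjusted p of 0.0849 in edgeR's quasi-likelihood test, and 0.66 with an unadjusted p of 0.00372 and an adjusted p of 0.773 with the line number as a block. Leaving out 1 line gave 0.30 to 1.07 for Peg10, lowest without maternal null line 3, and leaving out both lines numbered 3 gave 0.61 with an unadjusted p of 0.0140.

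Of the other genes of the cluster, Sgce, which encodes epsilon-sarcoglycan and shares its promoter region with Peg10, had a log2 fold change of 0.24 ± 0.28, and Ppp1r9a, which encodes neurabin, one of -0.11 ± 0.11. Tfpi2 and Calcr were not tested.

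The promoter windows that follow belong to the 3 genes lower in the maternal null at an unadjusted p under 0.05, and they are shown because they differed widely in CpG, the dinucleotide that DNA methylation acts on. Each is the 250 bases before a RefSeq start in GRCm38.p6, written 5′ to 3′ on the strand of the gene, with every CpG in capitals. They span chr7:142969265-142969514 (minus strand), chr7:143004796-143005045 (plus strand) and chr6:5383136-5383385 (plus strand, 1 of 2 annotated starts).
Ascl2: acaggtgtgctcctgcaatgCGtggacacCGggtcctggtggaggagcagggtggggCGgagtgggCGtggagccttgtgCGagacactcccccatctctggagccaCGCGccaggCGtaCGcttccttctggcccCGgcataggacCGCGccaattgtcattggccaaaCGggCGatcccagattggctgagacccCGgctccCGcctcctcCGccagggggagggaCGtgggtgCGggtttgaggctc
Tspan32: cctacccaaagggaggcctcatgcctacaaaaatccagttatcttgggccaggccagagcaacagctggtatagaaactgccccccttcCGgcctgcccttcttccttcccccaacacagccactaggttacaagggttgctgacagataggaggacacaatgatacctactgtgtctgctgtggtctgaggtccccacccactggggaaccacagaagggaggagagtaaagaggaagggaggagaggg
Asb4: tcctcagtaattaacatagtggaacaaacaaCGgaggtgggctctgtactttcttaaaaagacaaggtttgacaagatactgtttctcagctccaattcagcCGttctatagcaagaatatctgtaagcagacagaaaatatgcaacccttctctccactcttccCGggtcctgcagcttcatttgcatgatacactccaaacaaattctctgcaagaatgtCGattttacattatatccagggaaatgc
The window of Ascl2 held 19 CpG, that of Tspan32 held 1 and that of Asb4 held 4. Over the 71 windows of the 44 list genes that have an entry, the median was 12 CpG, against 6 over all 32851 windows.

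H19 and Igf2 share an insulator and enhancers on chromosome 7, H19 being a maternally expressed non-coding RNA and Igf2 a paternally expressed growth factor. They were the only genes on the list whose spread between lines of 1 genotype was above the 95th percentile of all genes tested (4.76% of the list, against 5.0% of all genes). H19 was at 6.70, 4.43 and 17.8 CPM in the controls and at 8.27, 8.23 and 33.6 CPM in the maternal null. Igf2 was at 0.396, 0.538 and 3.71 CPM in the controls and at 0.547, 0.304 and 10.4 CPM in the maternal null. In both genes the lines numbered 3 were far above the rest in both genotypes, with a mean 3.72 times that of lines 1 and 2 for H19 and 15.9 times for Igf2.

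The log2 fold change between genotypes was 0.78 ± 0.67 for H19 and 1.22 ± 1.34 for Igf2, with unadjusted p-values of 0.281 and 0.389 in edgeR's quasi-likelihood test. Without maternal null line 3, which leaves the high control line 3 in place, these were -0.22 and -1.86. With the line number as a block Igf2 was at 0.50. Without both lines numbered 3, Igf2 was at -0.19 while H19 was at 0.62 ± 0.18 with an unadjusted p of 0.00588 and an adjusted p of 0.995. H19 was higher in the maternal null line of each of the 3 pairs, and with the line number as a block it had a log2 fold change of 0.72 and an unadjusted p of 0.00338, with an adjusted p of 0.773. The block thus moved the count of list genes with an unadjusted p under 0.05 to 2 higher (Peg10 and H19, against 2.07% of all genes) and 4 lower (Asb4, Ascl2, Slc22a18 and Phlda2, against 2.06%). Without both lines numbered 3 the count was 2 higher (Peg10 and H19, against 2.47% of all genes) and 2 lower (Ascl2 and Ddc, against 2.24%). On lines 1 and 2 alone, 4 of the 42 genes did not overlap and were higher in the maternal null (against 17.0% of all genes) and 11 were lower (against 17.4%).

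The lines numbered 3 were above lines 1 and 2 in both genotypes for 13 of the 42 genes (31.0%, against 23.1% of all genes) and below them for 4 (9.52%, against 25.2%). Peg3, a zinc finger gene, Grb10, a growth factor receptor adaptor, and Slc38a4, an amino acid transporter, were among the 13. All 6 fibroblast markers were also highest in a line numbered 3, 4 of them in control line 3 and 2 in maternal null line 3. Only 2 of the 6 had enough counts to be tested, and Lum rested on 1 count in control line 3. The summed level of the 6 was 1.84, 2.04 and 6.25 CPM in the controls and 2.24, 1.51 and 3.18 CPM in the maternal null. Its part in these results was not tested.

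**Figure D3:**
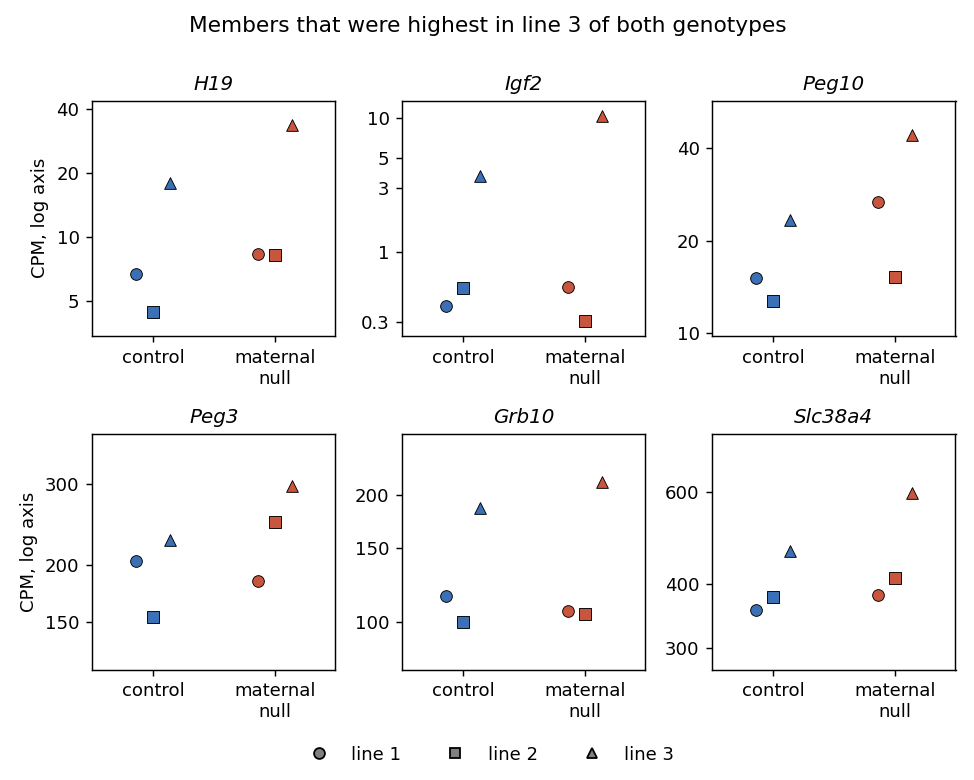
Levels in CPM on log axes of 6 imprinted genes, H19, Igf2, Peg10, Peg3, Grb10 and Slc38a4, with 1 point per line and the symbol giving the line number. The triangle, line 3, is the highest point of each genotype in every panel, and it lies furthest from the other lines in Igf2 (3.71 CPM in the control and 10.4 CPM in the maternal null).

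The 5 non-canonical imprinted genes, all expressed from the paternal allele in early embryos or extra-embryonic tissue, were all tested and all had a log2 fold change above 0, of 0.01 to 0.35. None had an unadjusted p under 0.05. Slc38a4 had the highest level per length on the list, 101 CPM per kb. It was at 355, 378 and 462 CPM in the controls and at 380, 410 and 597 CPM in the maternal null, where the groups overlapped but each maternal null line was above the control of the same number. Sfmbt2, a Polycomb-group gene, had the highest log2 fold change of the 5, 0.35 ± 0.23, followed by Gab1, a docking protein of receptor signalling, with 0.32 ± 0.17, and without both lines numbered 3 these were 0.12 and 0.15. Jade1 (0.01 ± 0.09) and Smoc1 (0.02 ± 0.09) were close to 0, and the spread of Jade1 between lines was at the 1.03 percentile of all genes tested. The direction of Jade1 turned when only total counts were used for scaling, that of Smoc1 without control line 3 or both lines numbered 3, and without maternal null line 3 the count above 0 was 3 of 5.

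In the Peg3 cluster, Peg3 was at 204, 154 and 227 CPM in the controls and at 185, 248 and 297 CPM in the maternal null. Lines of both genotypes were interleaved, and the log2 fold change was 0.32 ± 0.20 with an unadjusted p of 0.150 in edgeR's quasi-likelihood test. Usp29 (0.19 ± 0.29), which shares its start region with Peg3 on the opposite strand, and Zim1 (0.25 ± 0.55) also had means above the controls, but without the lines numbered 3 both were below 0 and 1 of the 3 genes was above.

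Commd1, a copper metabolism gene whose intron holds the paternally expressed Zrsr1, was at 73.6, 66.5 and 75.1 CPM in the controls and at 61.5, 65.5 and 52.6 CPM in the maternal null. The groups did not overlap, though control line 2 and maternal null line 2 were close. Its log2 fold change was -0.26 ± 0.12 with an unadjusted p of 0.0546 in edgeR's quasi-likelihood test, and without both lines numbered 3 it was -0.14 with an unadjusted p of 0.115. Zrsr1, a splicing factor gene, had a value of 0.06 ± 0.12. Because strand is not given, reads of Zrsr1 and of the intron of Commd1 that surrounds it were assigned by the authors' counting alone.

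Grb10, whose expressed allele depends on tissue, was at 115, 100.0 and 186 CPM in the controls and at 106, 105 and 215 CPM in the maternal null. The line numbered 3 was the highest in each genotype and the other 4 lines were close together. Its log2 fold change was 0.08 ± 0.33. Its neighbour Ddc, which encodes the enzyme that forms dopamine, was at -0.14 ± 0.12, and without the lines numbered 3 at -0.18 with an unadjusted p of 0.0476.

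Igf2r, the receptor that clears IGF2, was at 184, 212 and 205 CPM in the controls and at 193, 209 and 320 CPM in the maternal null. Maternal null line 3 alone lay outside the range of the controls. Its log2 fold change was 0.26 ± 0.19, and 0.02 without the lines numbered 3. Airn, the non-coding RNA that silences paternal Igf2r in differentiated cells, held 0 to 16 counts per library and was not tested.

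Copg2, a coat protein gene downstream of Mest, was at 160, 181 and 151 CPM in the controls and at 162, 177 and 178 CPM in the maternal null. Mest, a paternally expressed hydrolase-like gene, had a log2 fold change of -0.27 ± 0.16 and was lower in the maternal null line of each of the 3 pairs, from 39.8 against 40.3 CPM in pair 1 to 26.8 against 45.5 CPM in pair 3, and without pair 3 its log2 fold change was -0.04. Gnas, a signalling gene with products from either allele, was at 185, 211 and 226 CPM in the controls and at 204, 198 and 170 CPM in the maternal null. H13, a signal peptide peptidase, was at 14.8, 13.7 and 12.1 CPM against 12.8, 12.4 and 10.6 CPM. Blcap, in whose intron Nnat lies, was at 24.3, 21.7 and 22.7 CPM against 24.1, 20.9 and 18.5 CPM. In Copg2, Gnas, H13 and Blcap the groups overlapped, and the log2 fold changes lay between -0.18 and 0.07.

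In the Dlk1-Dio3 cluster, 2 of 5 genes were tested. Dio3, an enzyme that inactivates thyroid hormone, was at 3.75, 4.37 and 3.48 CPM in the controls and at 3.35, 3.32 and 2.18 CPM in the maternal null. The groups did not overlap, by a margin smaller than the spread within either, with a log2 fold change of -0.38 ± 0.23 and an unadjusted p of 0.134 in edgeR's quasi-likelihood test. Mirg, a microRNA host transcript, was at 1.54 to 3.53 CPM over the 6 lines with a log2 fold change of -0.12 ± 0.35, and of 0.46 without both lines numbered 3. The maternally expressed non-coding RNAs Meg3 and Rian were near 0, although they are thought to form a continuous transcription unit with Mirg. Meg3 had 1, 35 and 1 counts in the controls and 2, 3 and 0 in the maternal null. Dlk1, a transmembrane regulator of growth, had 0 counts in all 6 libraries.

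Impact, a paternally expressed translational regulator, was at 204, 197 and 189 CPM in the controls and at 204, 240 and 214 CPM in the maternal null. Maternal null line 1 and control line 1 differed by less than 1 CPM while the other maternal null lines were above every control, and the log2 fold change was 0.16 ± 0.10. The other tested genes at loci of their own ran from -0.53 ± 0.55 for Nap1l5, at 0.111 to 0.462 CPM the gene with the lowest counts tested, to 0.15 ± 0.15 for Zdbf2, and without both lines numbered 3 these were -0.12 and 0.00075. Plagl1, a zinc finger gene linked to transient neonatal diabetes, and Inpp5f, a phosphatase gene, lay between them at -0.16 and 0.10.

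The 10 genes not tested were Calcr, Tfpi2, Kcnq1, Rasgrf1, Dlk1, Meg3, Rian, Slc22a3, Slc22a2 and Airn. Of these, Dlk1 and Slc22a2 had 0 counts in every library, and Rasgrf1, Tfpi2 and Calcr had at most 3 counts in any. Slc22a3, an organic cation transporter of the Igf2r cluster that is imprinted in placenta, had 0, 0 and 2 counts in the controls and 3, 3 and 11 in the maternal null, the 11 coming from line 3. Nothing is read from differences at these depths.

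Genes were grouped by the allele known to be expressed in at least some tissues. Whether they were expressed from 1 allele in these cells was not measured. Of 20 in the paternal group, which includes the 5 non-canonical genes, 14 had a log2 fold change above 0 (median 0.13). The same held for 4 of 18 in the maternal group (median -0.17) and 1 of 4 placed as dependent on isoform or tissue (median -0.12). These counts were not tested, and 9 of the 18 maternally expressed genes belong to the Kcnq1ot1 cluster, so they are not independent. Leaving out maternal null line 3 lowered the paternal count to 9 of 20, with a median of -0.0020, and left the maternal count at 4 of 18 with a median of -0.20.

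Other genes of imprinted regions gave the range beside which these values stand. Of 20 further names, 13 were tested, 9 with a log2 fold change above 0 and 4 below, between -0.17 for Casd1 and 0.17 for Tnfrsf22. Of these, 0 had an unadjusted p under 0.05 in edgeR's quasi-likelihood test. Among those tested, groups did not overlap for Trappc9, higher in the maternal null (as for 4.7% of all genes), and Casd1, lower (as for 4.68%). Of 13 genes whose products read or maintain imprints, all were tested. Zfp57, which binds methylated imprinting control regions, was at 151 to 185 CPM in the controls and at 144 to 169 CPM in the maternal null, with a log2 fold change of -0.08 ± 0.12. Its cofactor Trim28 was at -0.08 ± 0.14, the maintenance methyltransferase Dnmt1 at 0.12 ± 0.15 and the oocyte-derived methylation protector Dppa3 at 0.27 ± 0.19. Only Smchd1 had an unadjusted p under 0.05 among the 13.

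ZFP57 recognises the hexamer TGCCGC when its CpG is methylated. Searched on both strands in the 250 bases before the start, the hexamer was in 11 of 71 list windows (15.5%), against 8.68% of all windows. Overlapping windows of neighbouring Mest starts were counted separately. By gene the hexamer was in at least 1 window of 10 of 44 list genes (22.7%), against 9.84% of all genes, and no test was made of either share. The hexamer holds a CpG, and list windows held more CpG than all windows (median 12, against 6). Windows of Mest (chr6:30737800-30738049, plus strand, 1 of 3 annotated starts) and of Nap1l5 (chr6:58907127-58907376, minus strand) are printed because both are paternally expressed genes whose promoters are methylated in the egg, with the hexamer on either strand in capitals.
Mest: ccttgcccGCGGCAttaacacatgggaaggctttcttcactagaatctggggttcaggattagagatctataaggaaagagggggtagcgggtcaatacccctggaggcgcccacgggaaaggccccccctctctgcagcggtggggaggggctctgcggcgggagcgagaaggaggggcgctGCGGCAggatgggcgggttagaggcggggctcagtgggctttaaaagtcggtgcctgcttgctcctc
Nap1l5: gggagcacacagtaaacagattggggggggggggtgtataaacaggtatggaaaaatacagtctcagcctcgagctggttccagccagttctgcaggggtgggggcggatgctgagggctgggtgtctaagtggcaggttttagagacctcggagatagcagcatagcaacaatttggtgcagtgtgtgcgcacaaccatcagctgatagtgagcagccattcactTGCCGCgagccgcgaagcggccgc
The Mest window held 2 matches and the Nap1l5 window 1. The windows of Ascl2, Tspan32 and Asb4 printed above held 0, which says only that these letters are not in those bases.

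The study also followed mESCs as they left pluripotency towards neuromesodermal progenitors. Its first samples were of cells in serum medium with LIF, and later ones had basic FGF, then also a GSK3 inhibitor and last GDF11. By their labels, these libraries sample a few lines of each genotype repeatedly over several days, so they are not independent lines. Of 45 count libraries of that time course, 7 correlated best with the normalised column of the same name over 73 genes, so they were not split by day or genotype. The 6 libraries in 2i + LIF come from the same deposited counts but have no normalised column. Their labels could therefore not be checked in this way, and for genotype only the lower Smchd1 level goes with them. In 1 further time course library no gene after Nup93 on chromosome 8 had a count, across the 18511 genes that follow it. It was left out, as were libraries under 1000000 counts. Over the remaining 42 libraries, 8 list genes were above all 6 lines in 2i + LIF in every one, in CPM without a scaling factor. All 8 were among the 42 list genes tested in 2i + LIF, where 2.06% of the 17696 genes tested lay above in this way, and none of the 42 was below all 6 lines in every library, against 3.51%. Peg10 ran from 1043 to 4668 CPM (median 2288), against at most 41.8 CPM in 2i + LIF, and H19 from 161 to 4409 CPM (median 963), against at most 31.9. The others were Sfmbt2, Inpp5f, Sgce, Nnat, Cdkn1c and Mirg.

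Other list genes lay lower in the time course. Igf2r was below every 2i + LIF line in 41 of the 42 libraries, with a median of 82.0 CPM against 208 CPM, and Ddc in 40 of 42. Of the genes given above with a lower mean in the maternal null, Slc22a18 was below the 2i + LIF range in 39 libraries, Dio3 in 38 and Tspan32 in 37, while Cdkn1c was above it in all 42, Commd1 in 30, Phlda2 in 28 and Asb4 in 20, and Ascl2 was above it in 11 and below it in 15. Meg3 and Rian, near 0 in 2i + LIF, reached 394 and 792 CPM in the highest library, while Dlk1 stayed at 0 counts in 31 of the 42. The time course reads were single-end and those of the 2i + LIF lines paired-end, so medium, cell state and library type differ together and cannot be told apart.

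**Figure D4:**
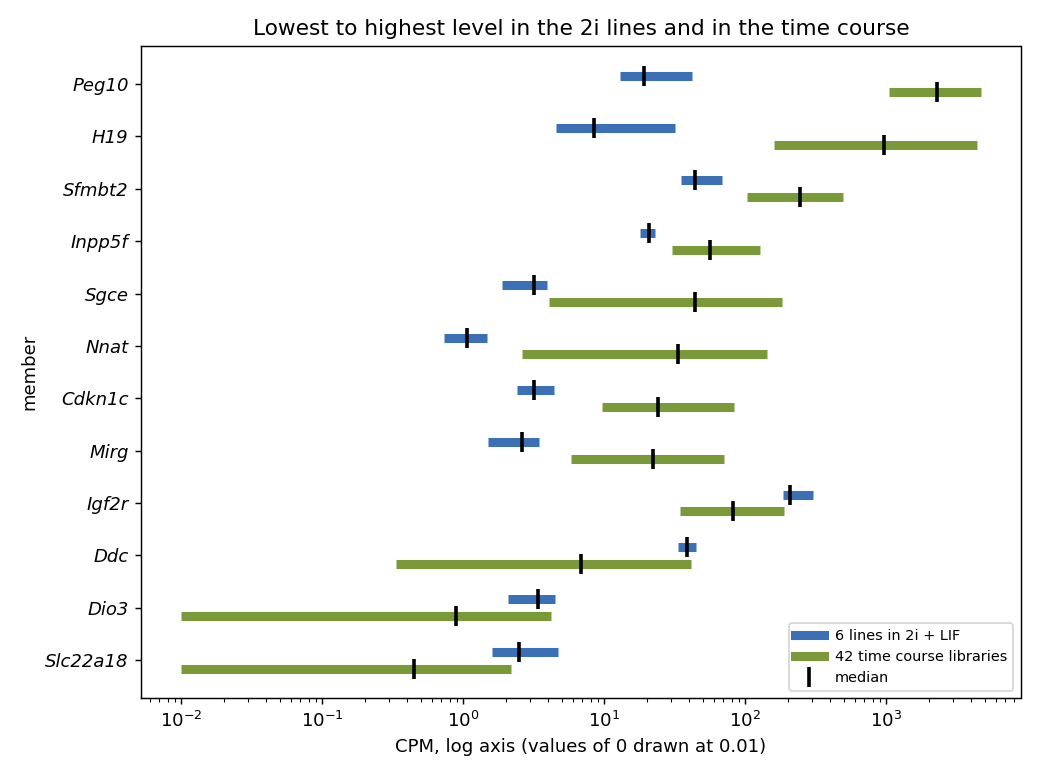
Lowest to highest level (bars) and median (black tick) in CPM on a log axis for 12 imprinted genes in the 6 lines held in 2i + LIF (blue) and in the 42 time course libraries (green), with values of 0 drawn at 0.01. The bars of the upper 8 genes do not overlap, and Peg10 shows the widest gap, from at most 41.8 CPM to at least 1043 CPM.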

How the data were processed

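RNA of 6 mESC lines in 2i + LIF (3 control, 3 maternal null) and of a differentiation time course was sequenced. The authors trimmed reads with Trim Galore 0.4.4, mapped them to GRCm38.p6 with HISAT2 2.0.5 and quantified genes in SeqMonk, and they deposited raw read counts per gene, which were used unchanged. The labels name a stranded or a non-stranded mRNA kit, and the strand setting of the counting is not given in the sources used here. The log2 RPKM values that the authors deposited for Hox genes and differentiation factors hold no gene of the list and served only to check the names of the time course columns. They do not cover the 2i + LIF lines, whose genotype labels and line numbers were used as given. The list, its clusters and the other gene lists were chosen with earlier results of these data known.

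Genes were filtered with filterByExpr, scaled by TMM and tested for genotype with edgeR 4.0.16 (quasi-likelihood test, Benjamini-Hochberg over all genes tested, threshold 0.05) in R 4.3.3. CPM values use the TMM-scaled library size, and SE was taken from the test statistic. Levels per kb use the union of GENCODE M21 exons. The test was run on simulated counts in which 200 genes were changed by a larger fold than any list gene showed in the main test. The simulation held no deviation shared by the genes of a line. It does not show how small a difference the test would find in these data. The depth of 27526359 to 126716460 counts limits the precision of genes under about 1 CPM most in control line 1. Lines were grouped by their labels, and each line is a separate blastocyst. The p-values set the genotype difference against the spread between lines, estimated with information shared across all genes. Line and library were the same unit, so their spreads cannot be told apart.

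Line numbers are shared by the genotypes, and the labels do not say that a number marks a pair. Deviations from the genotype means correlated at 0.17, 0.33 and 0.38 between lines of the same number 1, 2 and 3. Control line 1 correlated more with maternal null line 2 (0.24), and control line 2 also with maternal null line 1 (0.12). Deviations cancel out within a genotype and line 3 stood apart in both, so these values cannot decide how lines 1 and 2 pair. The numbers were still treated as pairs, and the block and the counts over pairs rest on that choice. Alternatives were RLE scaling, no scaling factor, DESeq2 1.42.0, the edgeR exact test, 2 other filters, the line number as a block and leaving out each line. Leaving out both lines numbered 3 was added after seeing the data. Values in every line were given for tested genes whose groups did not overlap, that had an unadjusted p under 0.05, an absolute log2 fold change of at least 1 or a spread above the 95th percentile, or that had the highest level per length of their cluster, and further genes were given by value to describe their cluster. RefSeq promoter windows matched 44 of the 52 genes.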

Additional observations from a re-analysis of the deposited data

Results flagged for a closer look

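The time course libraries, which enter no comparison between genotypes here, held 8 imprinted genes at levels above every line in 2i + LIF in all 42 libraries (8 of the 42 list genes tested in 2i + LIF, against 2.06% of all genes tested). Their median levels there were 2288 CPM for Peg10, 963 for H19, 247 for Sfmbt2, 55.9 for Inpp5f, 44.1 for Sgce, 33.2 for Nnat, 24.1 for Cdkn1c and 22.1 for Mirg. In the 2i + LIF lines the corresponding medians were 19.2, 8.41, 43.9, 20.7, 3.16, 1.06, 3.20 and 2.62 CPM. Neither day nor genotype was assigned to these libraries, which by their labels sample a few lines repeatedly, and the difference was not tested.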

How the results depend on the processing

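No imprinted gene on the list passed the adjusted threshold under any of the 14 alternatives run. Over all genes, 2 were called by the edgeR exact test (Magel2 and Gemin5) and 3 without both lines numbered 3 (Gemin5, Smchd1 and Xlr3c), where Smchd1 was at -0.77 with an adjusted p of 0.0296. List genes higher at an unadjusted p under 0.05 numbered 1 with DESeq2, 1 with all genes that had any count, 2 with the line number as a replicate block, 2 without both lines numbered 3, and 0 to 2 on leaving out 1 line, against 0 in the main result. Lower ones numbered 5 with any count, and 0 to 3 on leaving out 1 line, against 3, with 0 without control line 3 or without maternal null line 2 and 1 without maternal null line 3. The replicate block turned no direction of a gene given in every line. Groups did not overlap, higher in the maternal null, for 1 gene (Impact) with any count and for 1 (Impact) with at least 10 counts in every library, and for 4 without both lines numbered 3, where 11 were lower. Spreads above the 95th percentile numbered 4 with any count and 4 with at least 10 counts. On leaving out 1 line, the non-canonical genes above 0 numbered 3 to 5 and the paternally expressed ones 9 to 15, both lowest without maternal null line 3. All 10 Kcnq1ot1 genes stayed below 0 under 11 of 14 alternatives, 9 did without control line 3 or maternal null line 3, and 8 without both lines numbered 3. Of the 266 log2 fold changes recomputed for 19 genes, 11 turned sign. Leaving out 1 line gave -0.22 to 1.59 for H19, -1.86 to 2.88 for Igf2, -0.35 to 0.40 for Grb10 (-0.0044 without control line 1 and -0.083 without control line 2) and -0.011 to 0.35 for Slc38a4, each lowest without maternal null line 3. Without both lines numbered 3, Gnas was at 0.020, Copg2 at -0.010, Igf2 at -0.19, Cd81 at 0.065 and Grb10 at -0.028. The cause of these turns was not tested. Medians over the list ran from -0.13 to -0.02. Depth limits the 10 untested genes, which had at most 35 counts in any library.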

Other observations

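Sgce and Peg10 share a promoter region but differed in level. Per kb of exon, Peg10 was at 3.43 CPM and Sgce at 0.293 CPM over the 6 lines in 2i + LIF. In the Dlk1-Dio3 cluster, Mirg held a level of 0.335 CPM per kb while Meg3 and Rian were each at 0.003 CPM per kb, although the annotation places them in 1 row along chromosome 12. In the control line with the most counts, line 2, Meg3 had 35 and Rian 16 counts, more than in the other 5 lines together for Meg3 (7 counts).

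Of the 8 markers of the pluripotent state, 4 had a higher and 4 a lower mean in the maternal null, and only Klf4 did not overlap between genotypes. It was higher in every maternal null line (145, 145 and 146 CPM) than in every control line (118, 126 and 108 CPM), with a log2 fold change of 0.31 ± 0.10, an unadjusted p of 0.0133 and an adjusted p of 0.992 in edgeR's quasi-likelihood test. Of the 4 mesoderm and neural markers tested, 3 had a higher and 1 (Tbx6, log2 fold change -0.37) a lower mean in the maternal null, and T (7.82, 7.86 and 6.15 against 8.91, 8.80 and 8.77 CPM) and Sox1 (1.55, 2.27 and 1.87 against 2.60, 2.89 and 2.44 CPM) did not overlap. Their adjusted p was 0.992 in the same test, and 4.7% of all genes tested lay this way without overlap. Of the 6 primitive endoderm markers 5 had a higher mean, with Sox17 at -0.61. Of the 3 trophoblast markers tested 2 did, with Krt7 at -0.17. Gene by gene, all of these overlapped between genotypes. The summed level of the 6 primitive endoderm markers did not, at most 12.1 CPM in any control and at least 12.3 CPM in any maternal null line. Nor did that of the 5 mesoderm and neural markers listed, at most 11.7 CPM against at least 13.4 CPM. The sums of the pluripotent, fibroblast and trophoblast markers overlapped. Differences in these sums were not tested.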
